A study of Homo sapiens with 24 samples.

Results

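The drug ISRIB, which stabilises and activates eIF2B, a factor needed to start translation, was given to PC9 cells for 6 h in RPMI 1640 medium without asparagine, and its effect on RNA was read against DMSO vehicle in the same medium. The comparison rests on 6 of the 24 RNA sequencing libraries of the series, chosen by their titles: 3 labelled -Asn ISRIB (200 nM) and 3 labelled -Asn DMSO (0.004%), all collected 6 h after the change of medium. PC9 is an established human non-small cell lung cancer line, and all groups are this 1 line, grown for 2 days, rinsed with PBS and given fresh medium with drug or vehicle. Beside these 6 libraries, 3 libraries each of DMSO and of ISRIB in RPMI 1640 with asparagine at 6 h, called complete medium here, and of DMSO and of ISRIB without asparagine at 24 h are used to show where the response differed. The labels number the biological replicates 1 to 3 and do not say what a number stands for, so p-values measure the spread between these cultures of 1 line.

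Cells short of an amino acid collect uncharged transfer RNA, which activates the kinase GCN2. GCN2 phosphorylates the initiation factor eIF2, and phosphorylated eIF2 blocks its exchange factor eIF2B, which lowers protein synthesis in general but raises translation of a few messages such as that of the transcription factor ATF4. This is the integrated stress response. ATF4 and its partner CHOP raise genes for amino acid synthesis and uptake, for charging of transfer RNA and for brakes on growth, among them ASNS, the enzyme that makes asparagine. ISRIB keeps eIF2B active when eIF2 is phosphorylated, and so blunts the response downstream of the kinase.

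The 6 libraries held 17115044 to 22741292 reads assigned to genes, and 22911 to 24968 genes had at least 1 read. ISRIB replicate 3 stood apart from the other 5: it had the fewest reads and genes, the largest share of mitochondrially encoded reads (8.08% against 6.59% to 7.69%), and its counts changed with transcript GC content by a slope of -0.35 (log2 per 10 GC points), where the slopes of the other 5 lay between -0.11 and 0.08. Across the 17326 genes with known GC content the log2 fold change under ISRIB correlated with GC at -0.142, and at 0.196 without that library, as a description of these libraries. EPCAM, CDH1, EGFR and the keratin genes KRT7, KRT8, KRT18 and KRT19 had at least 5949 reads in each of the 6 libraries. MUC1, a further epithelial marker, had only 91 to 198 reads, and NKX2-1, SFTPB and NAPSA, markers of differentiated lung adenocarcinoma, had 0 to 6. Of 7 fibroblast, 5 endothelial, 7 immune and 2 red cell markers in the table, LUM, KDR and MS4A1 had no reads, and the others had 0 to 41 except CDH5 (464 to 1024) and COL1A1 (78 to 145). Those of them that could be tested, among them COL1A1, CDH5, PECAM1 and CD14, did not pass.

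In the edgeR test as run here, ISRIB lowered far more genes than it raised, and the falls were deeper. Expression is given as CPM, read counts relative to the library total scaled with the TMM factors of edgeR, and changes as log2 fold changes with their standard error (SE) from edgeR's quasi-likelihood test over the 17409 genes with enough reads. A gene is said to have risen or fallen where its p, adjusted over all these genes by the Benjamini-Hochberg method, was below 0.05. Without asparagine at 6 h, 381 genes (2.19%) passed under ISRIB, of which 285 (1.64%) fell and 96 (0.551%) rose. The falls had a median of -0.91 on the log2 scale, with 120 of at least 2-fold (0.689% of all genes), 33 of at least 4-fold and 12 of at least 8-fold. Most of the deepest were in scarce genes. Ranked by size among falls that averaged 5 CPM or more, those of at least 8-fold ended at rank 3 and those of at least 4-fold at rank 12. The rises had a median of 0.48, only 3 of them reached 2-fold (0.0172%), and none exceeded 1.21, against a median of 0.008 over all genes tested. In 6.89% of all genes the 3 ISRIB libraries lay below the 3 vehicle libraries, and in 6.35% above. Below, the 20 leading falls and the 20 leading rises are the largest changes among called genes whose 6 libraries averaged 5 CPM or more and whose groups did not overlap.

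The balance of rises and falls depended on how the GC trend and single libraries were treated. With the trend removed from each library, 574 genes fell and 485 rose. With the replicate number as a block as well, the counts were nearly equal, at 703 falls and 691 rises. Of these, 131 falls and 10 rises were of at least 2-fold. Leaving out vehicle replicate 1 brought the falls to 214 and the rises to 31, and without vehicle replicate 2 or 3 there were 53 or 45 rises. Without ISRIB replicate 3 there were 282 falls and 71 rises. No gene called in the main comparison changed direction under any of the 19 alternatives.

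**Figure D1:**
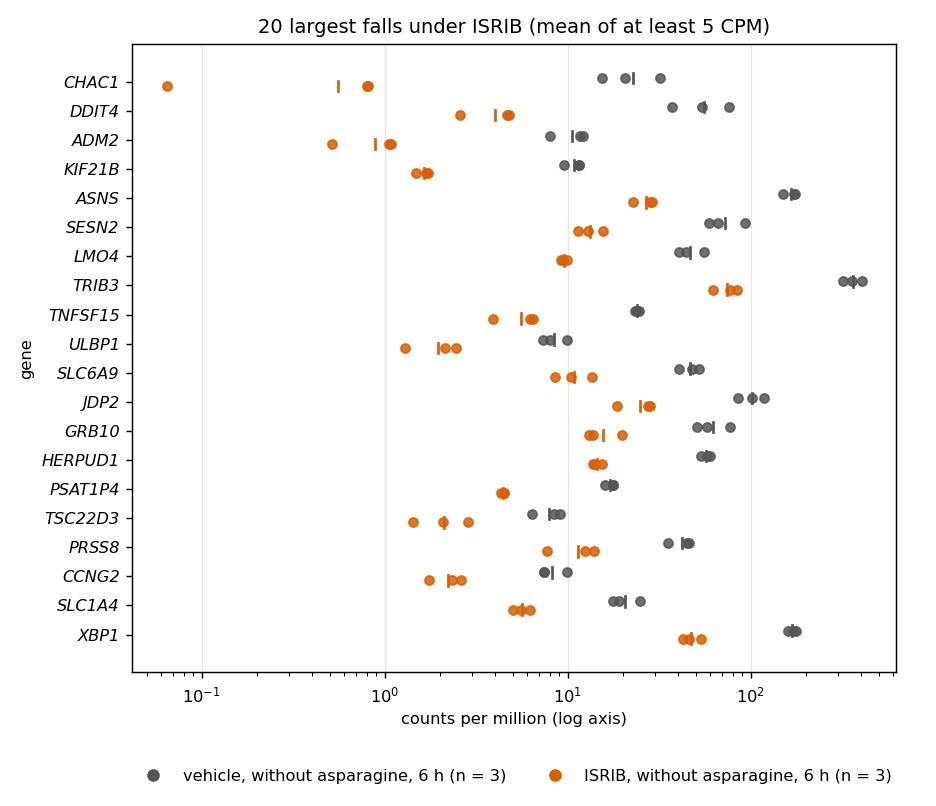
Expression of the 20 leading falls under ISRIB without asparagine at 6 h (mean of at least 5 CPM), in CPM on a log axis; points are single libraries, 3 with vehicle (grey) and 3 with ISRIB (orange), and vertical ticks are group means. In each gene the ISRIB points lie to the left of the vehicle points, from CHAC1 at the top, 1 of whose ISRIB libraries had a single read, to XBP1 at the bottom.

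No gene of the drug's target complex or of the enzymes acting on eIF2 passed the edgeR test as run here. None of the 10 genes for subunits of eIF2, eIF2B and related initiation factors did, with a median of 0.04 and a range from -0.26 ± 0.17 for EIF2S2, the beta subunit of eIF2, to 0.20 ± 0.13 for EIF2S1, the phosphorylated alpha subunit. EIF2S2 passed under 1 alternative, with the GC trend removed and without ISRIB replicate 3 (-0.47, adjusted p = 0.012). The 5 eIF2B genes EIF2B1 to EIF2B5 lay between 0.02 and 0.15. Among the 4 kinases of eIF2 alpha, EIF2AK1 (HRI) was at -0.22 ± 0.06 (adjusted p = 0.08, edgeR, but 0.0052 with DESeq2, 0.044 with the filter of 5 CPM and 0.029 with the GC trend removed, or 0.027 with the replicate block as well), EIF2AK3 (PERK) at -0.07, EIF2AK4 (GCN2) at -0.04 and EIF2AK2 (PKR) at 0.13. PPP1R15A, which encodes the stress-induced phosphatase subunit GADD34 and is counted among ATF4 targets, had 254, 421 and 351 CPM with vehicle and 294, 476 and 482 with ISRIB. Its groups overlapped, at a log2 difference of 0.28 ± 0.23 (adjusted p = 0.78, edgeR), and the constitutive subunit PPP1R15B was at -0.08.

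The transcription factors of the response fell. Of the 22 genes tested in the list of basic leucine zipper (bZIP) factors, 8 fell and none rose, where 1.64% of all genes fell and 0.551% rose. The counts of the lists that follow are, for this comparison of ISRIB with vehicle, to be read against the same shares. ATF4 RNA was at 1026, 1131 and 1164 CPM with vehicle and 474, 552 and 652 with ISRIB, which left the groups well apart. It fell by 0.98 ± 0.10 (SE) on the log2 scale (edgeR adjusted p = 1e-06). DDIT3, which encodes CHOP, had 18.2, 24.8 and 19.0 CPM with vehicle and 7.22, 8.60 and 8.23 with ISRIB, and fell by 1.37 ± 0.15. ATF3, a bZIP repressor induced by ATF4 and CHOP, fell by 1.51 ± 0.23 and had its highest vehicle value in replicate 2 (20.9, 42.4 and 27.2 CPM against 8.28, 13.1 and 10.4 with ISRIB). JDP2 (on chromosome 14 from 75427716 to 75474111), a repressor of AP-1 sites, fell most in this list, from 101, 118 and 85.2 to 27.5, 28.2 and 18.7 CPM, by 2.03 ± 0.18 on the log2 scale. CREBRF fell by 1.28 ± 0.21 and CEBPG, a dimer partner of ATF4, by 0.98 ± 0.10. NFE2L1, a regulator of proteasome genes, fell by 0.38 ± 0.09 (edgeR adjusted p = 0.018). With 1 library left out it missed the threshold: NFE2L1 without vehicle replicate 1 or 2 or ISRIB replicate 3 (-0.37 to -0.31, adjusted p = 0.077 to 0.1).

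XBP1, a bZIP factor of the endoplasmic reticulum stress response, had 160.0, 177 and 169.6 CPM with vehicle and 42.6, 46.0 and 53.5 with ISRIB. The groups were far apart, and the fall of 1.83 ± 0.10 had an edgeR adjusted p of 1.1e-10. The other genes of the bZIP list stayed on the other side of the threshold: CEBPB at -0.77 ± 0.23 (adjusted p = 0.084), CREB5 at -0.67, NFIL3 at -0.19, ATF6 at -0.10, CEBPA at -0.09, NFE2L2 (NRF2) at -0.06 and ATF2 at 0.02. CREB3L2, CREB3, ATF7 and CEBPD lay between 0.07 and 0.16, and CREB1, ATF5 and CEBPZ between 0.32 and 0.33. CEBPZ shares the C/EBP name but is not a bZIP factor, and it stays in the counts of this list. For ATF5, whose message carries upstream reading frames like that of ATF4, the difference was 0.33 ± 0.11 (edgeR adjusted p = 0.16), but it passed as a rise without ISRIB replicate 3 (0.45, adjusted p = 0.02), with the GC trend removed (0.40, adjusted p = 0.0087, and 0.0092 with the replicate block) and with the trend removed but that library left out (0.36, adjusted p = 0.038).

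Of 42 tested genes listed as targets of ATF4 and CHOP, 35 fell and none rose, where 1.64% of all genes fell. Their median change was -1.23 against 0.008 for all genes, and in 38 of them every ISRIB library lay below every vehicle library, against 6.89% of all genes. The list was drawn up with earlier results of these data known. Of the 35 falls 34 passed without ISRIB replicate 3 and 33 without vehicle replicate 1, and those lost with 1 library left out were SLC3A2 without vehicle replicate 1 or ISRIB replicate 3 (-0.58 to -0.51, adjusted p = 0.054 to 0.063) and PSPH without vehicle replicate 1 (-0.35, adjusted p = 0.06). Those that did not pass were NUPR1 (-1.37 ± 0.40), CEBPB, PYCR1 (-0.50), ERO1A (0.18), PPP1R15A, ATF5 and RND3 (0.67 ± 0.22).

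ATF4 with a C/EBP partner binds composite elements of the form TGATGNAA, and the 6 promoter windows below show such 8-base matches in genes that fell. They are the genes of the 20 leading falls and of a list of 12 stress genes whose window holds a match, with the largest fall first. The windows are from RefSeq, cover 250 bases before to 50 bases after an annotated start of transcription on GRCh38.p14, and are written 5′ to 3′ on the strand of the gene, with the match in capitals. Where the capitals read TTGCATCA the element lies on the other strand.
CHAC1, chr15:40953221-40953520, plus strand: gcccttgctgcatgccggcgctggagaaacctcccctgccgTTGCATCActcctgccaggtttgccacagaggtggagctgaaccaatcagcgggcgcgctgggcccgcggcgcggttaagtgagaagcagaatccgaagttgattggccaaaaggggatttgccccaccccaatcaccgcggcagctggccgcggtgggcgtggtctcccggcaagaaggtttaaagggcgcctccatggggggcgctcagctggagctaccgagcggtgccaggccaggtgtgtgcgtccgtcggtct
ASNS, chr7:97872359-97872658, minus strand: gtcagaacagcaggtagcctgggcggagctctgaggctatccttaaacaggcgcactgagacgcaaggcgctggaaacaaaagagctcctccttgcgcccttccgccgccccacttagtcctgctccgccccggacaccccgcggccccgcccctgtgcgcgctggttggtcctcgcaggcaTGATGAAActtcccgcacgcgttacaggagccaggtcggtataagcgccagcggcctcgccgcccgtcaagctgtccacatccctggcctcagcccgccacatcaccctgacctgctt
JDP2, chr14:75427772-75428071, plus strand: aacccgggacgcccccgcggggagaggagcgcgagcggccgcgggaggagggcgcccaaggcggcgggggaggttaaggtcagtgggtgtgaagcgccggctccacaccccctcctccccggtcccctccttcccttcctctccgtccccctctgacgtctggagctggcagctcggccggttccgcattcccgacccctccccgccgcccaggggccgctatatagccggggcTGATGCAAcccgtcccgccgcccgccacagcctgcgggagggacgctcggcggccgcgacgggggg
HERPUD1, chr16:56931892-56932191, plus strand: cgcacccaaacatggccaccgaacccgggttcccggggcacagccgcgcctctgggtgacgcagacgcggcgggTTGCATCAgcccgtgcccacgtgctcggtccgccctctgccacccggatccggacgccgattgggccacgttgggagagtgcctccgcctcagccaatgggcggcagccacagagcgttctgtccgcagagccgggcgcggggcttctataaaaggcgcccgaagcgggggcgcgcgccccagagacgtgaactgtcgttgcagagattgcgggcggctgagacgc
SLC1A4, chr2:64989149-64989448, plus strand: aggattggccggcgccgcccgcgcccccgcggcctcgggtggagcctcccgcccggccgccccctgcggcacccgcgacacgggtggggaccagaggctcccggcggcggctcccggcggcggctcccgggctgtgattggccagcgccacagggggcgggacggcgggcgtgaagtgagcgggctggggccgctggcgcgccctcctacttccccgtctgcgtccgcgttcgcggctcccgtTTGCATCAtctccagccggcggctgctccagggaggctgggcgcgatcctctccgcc
ATF3, chr1:212565157-212565456, plus strand: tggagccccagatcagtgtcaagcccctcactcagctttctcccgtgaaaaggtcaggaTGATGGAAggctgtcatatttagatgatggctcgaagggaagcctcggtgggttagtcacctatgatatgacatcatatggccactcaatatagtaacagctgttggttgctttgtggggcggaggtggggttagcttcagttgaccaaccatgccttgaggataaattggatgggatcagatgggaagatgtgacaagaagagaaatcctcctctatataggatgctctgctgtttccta

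Measured from the start of transcription, the match began 209 bases before it in CHAC1, 68 in ASNS, 16 in JDP2, 176 in HERPUD1, 7 in SLC1A4 and 191 in ATF3. In CHAC1, HERPUD1 and SLC1A4 the element read TGATGCAA on the opposite strand, in JDP2 it read TGATGCAA on the strand of the gene, and ASNS held TGATGAAA and ATF3 TGATGGAA. ASNS, JDP2, SLC1A4 and ATF3 had more than 1 RefSeq window, of which 1 held the match. A window was found for 203 of the 285 genes that fell, and 37 of these (18.2%) held TGATGNAA on either strand. The share was 2.77% over the 10050 tested genes with a window and 3.62% over all 35116 windows of this length. A window was found for 68 of the 96 genes that rose, and none of the 68 genes held a match. An approximate upper limit for their share, 3 divided by 68, is 4.41%. The 2.77% over all tested genes lies below that limit, so the lack of matches does not show a lower share. For the stricter TGATGCAA the shares were 7.39% of the genes that fell and 0.756% of all tested. These are matches of letters, not sites of binding, and DDIT4, ADM2, SESN2 and TRIB3 had none in their windows.

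**Figure D2:**
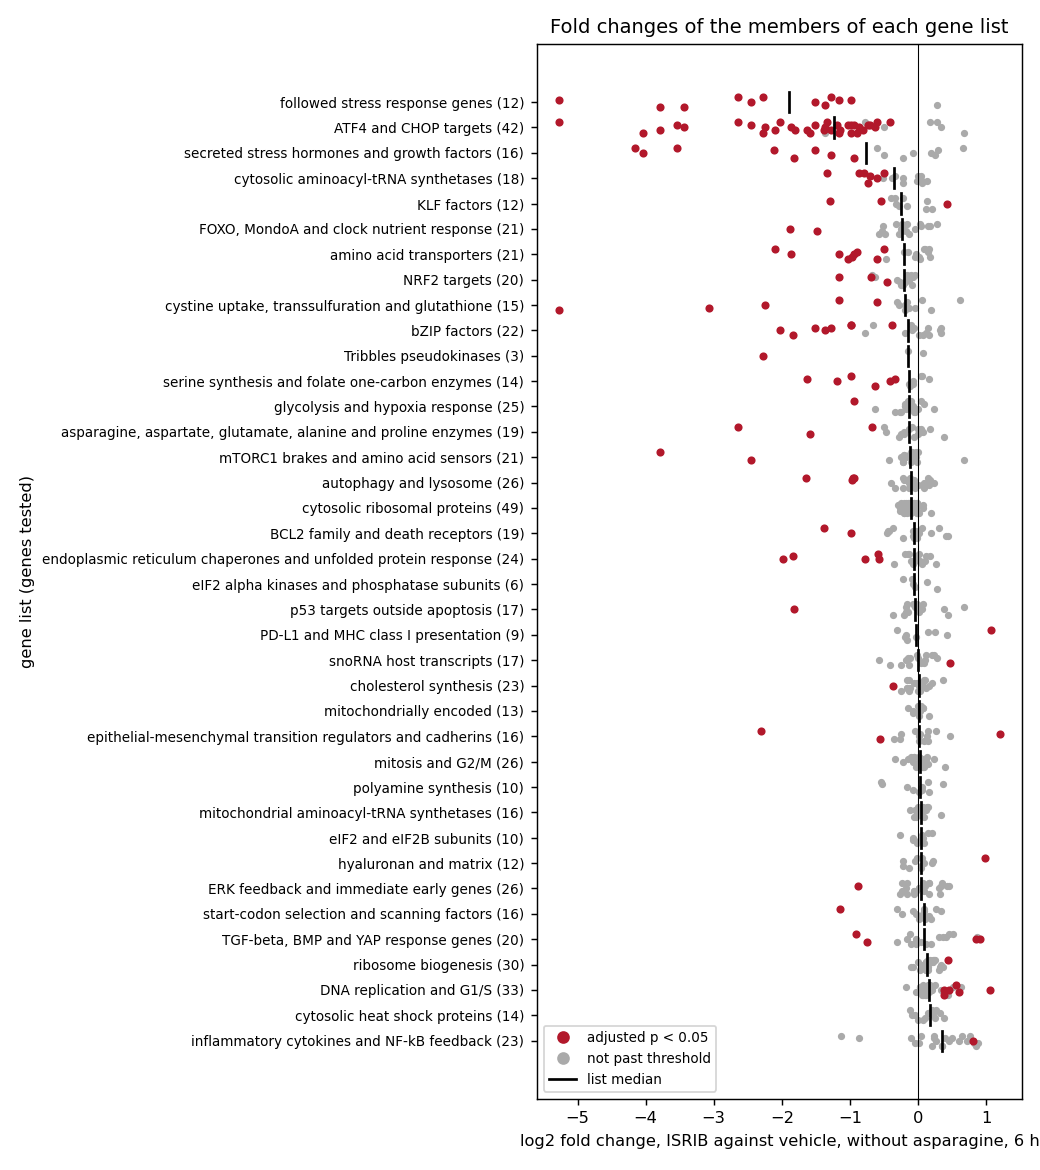
Log2 fold change under ISRIB without asparagine at 6 h for each tested gene of 38 gene lists, with the number tested in brackets; red points passed an adjusted p of 0.05, grey points did not, and black bars are list medians. The followed stress genes, the ATF4 and CHOP targets and the secreted stress factors lie furthest to the left, and the medians of the eIF2 and eIF2B subunits (0.04) and of the mitochondrial synthetases (0.04) lie near 0.

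Genes that restrain growth or signalling under stress were among the deepest falls. CHAC1, an enzyme that degrades glutathione, had 20.6, 32.0 and 15.3 CPM with vehicle and 0.796, 0.811 and 0.0648 with ISRIB, where the 3 ISRIB libraries held 15, 15 and 1 reads. It fell by 5.27 ± 0.45 on the log2 scale (edgeR adjusted p = 1.2e-07). DDIT4 (REDD1), an inhibitor of the growth kinase complex mTORC1, was at 54.4, 75.7 and 37.3 CPM with vehicle and 4.67, 4.76 and 2.59 with ISRIB, a fall of 3.78 ± 0.29. SESN2, a leucine-sensing inhibitor of the same complex, went from 59.2, 92.8 and 66.0 to 12.9, 15.6 and 11.4 CPM and fell by 2.45 ± 0.21. In CHAC1, DDIT4 and SESN2 the highest vehicle value was in replicate 2, and no vehicle library overlapped an ISRIB library. DDIT4 and SESN2 were the 2 that fell among 21 genes for mTORC1 brakes and amino acid sensors, and the median of that list was -0.12. VLDLR, a lipoprotein receptor gene counted among ATF4 targets, was lower in level, at 9.07, 7.70 and 6.08 CPM with vehicle and 0.796, 0.649 and 0.648 with ISRIB, and fell by 3.43 ± 0.22.

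TRIB3, a pseudokinase that binds ATF4 and CHOP and limits their activity, had 358, 403 and 319 CPM with vehicle and 84.1, 77.1 and 62.4 with ISRIB, with a wide gap between the groups. It fell by 2.27 ± 0.13 (edgeR adjusted p = 2.7e-10), whereas its relatives TRIB1 (-0.14 ± 0.10) and TRIB2 (0.07 ± 0.12) did not pass. Of the 19 genes of the BCL2 family and death receptors, BBC3 (PUMA, -1.39 ± 0.25) and HRK (-0.99 ± 0.20), both pro-apoptotic BH3-only genes, fell. Among 26 autophagy and lysosome genes 4 fell: ULK1, the kinase that starts autophagy (-1.64 ± 0.22), MAP1LC3B (-0.97 ± 0.13), WDR45 (-0.95 ± 0.23) and the lysosomal regulator TFEB (-0.95 ± 0.25, edgeR adjusted p = 0.04988). With 1 library left out, calls were lost for WDR45 without vehicle replicate 1 or 2 or ISRIB replicate 1 or 3 (-1.01 to -0.72, adjusted p = 0.056 to 0.13) and TFEB without vehicle replicate 1 or 2 or ISRIB replicate 1, 2 or 3 (-1.01 to -0.83, adjusted p = 0.1 to 0.24).

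Enzymes of amino acid synthesis were among the falls. ASNS (on chromosome 7 from 97852118 to 97872542) had 175, 151 and 173 CPM with vehicle and 28.2, 22.8 and 28.9 with ISRIB. The 3 values of each group lay close together, and ASNS fell by 2.64 ± 0.10 (edgeR adjusted p = 3.5e-13). Of 19 genes for asparagine, aspartate, glutamate, alanine and proline, ASNS, the alanine aminotransferase GPT2 (-1.59 ± 0.11) and the aspartate aminotransferase GOT1 (-0.68 ± 0.09) fell, and the list's median was -0.13. In the serine and folate list 6 of 14 fell: PSAT1 (-1.64 ± 0.14), MTHFD2 (-1.19 ± 0.11), PHGDH (-0.99 ± 0.11), SHMT2 (-0.64 ± 0.09), PSPH (-0.41 ± 0.08, lost without vehicle replicate 1) and MTHFD1L (-0.34 ± 0.07). Of 15 genes for cystine and glutathione, CHAC1, SLC7A11 (-1.16 ± 0.14), SLC3A2 and the transsulfuration enzymes CTH (-2.25 ± 0.19) and CBS fell. CBS was scarce, with 26, 20 and 23 reads with vehicle and 3, 2 and 2 with ISRIB. PCK2, the mitochondrial enzyme that turns oxaloacetate to phosphoenolpyruvate, went from 48.2, 44.9 and 38.5 to 13.3, 13.4 and 10.6 CPM and fell by 1.81 ± 0.16.

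Transporters and enzymes that charge transfer RNA fell as well. Of 21 amino acid transporter genes 9 fell and none rose, where 1.64% of all genes fell. SLC6A9, the glycine transporter GlyT1, had 52.0, 47.5 and 40.7 CPM with vehicle and 13.6, 10.4 and 8.56 with ISRIB and fell by 2.10 ± 0.21. SLC1A4, a carrier of alanine, serine, cysteine and threonine, fell from 24.9, 18.9 and 17.8 to 6.21, 5.57 and 4.99 CPM, by 1.87 ± 0.16. Neither gene's groups overlapped. Both chains of the large neutral amino acid exchanger, SLC7A5 and SLC3A2, fell by 1.03 ± 0.20 and 0.60 ± 0.13, the cationic transporter SLC7A1 by 0.94 ± 0.12, the glutamine carrier SLC1A5 by 0.97 ± 0.14, and the system A genes SLC38A2 and SLC38A1 by 0.90 ± 0.13 and 0.50 ± 0.12. Single libraries decided the calls of SLC3A2 without vehicle replicate 1 or ISRIB replicate 3 (-0.58 to -0.51, adjusted p = 0.054 to 0.063) and SLC38A1 without vehicle replicate 1, 2 or 3 or ISRIB replicate 1 or 2 (-0.53 to -0.41, adjusted p = 0.053 to 0.16).

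Among 18 cytosolic aminoacyl-tRNA synthetases 7 fell: GARS (-1.34 ± 0.12), AARS (-0.87 ± 0.09), MARS (-0.79 ± 0.10), SARS (-0.73 ± 0.06), WARS (-0.70 ± 0.07), YARS (-0.60 ± 0.08) and TARS (-0.50 ± 0.10). NARS, which charges the transfer RNA for asparagine, was at -0.33 ± 0.12 and did not pass (edgeR adjusted p = 0.22), and DARS, FARSA, FARSB and RARS lay between 0.04 and 0.14. The call of TARS was lost with 1 library left out: TARS without vehicle replicate 3 or ISRIB replicate 1 or 2 (-0.46 to -0.42, adjusted p = 0.054 to 0.063). None of the 16 mitochondrial synthetases passed, and their median was 0.04. XPOT, which exports transfer RNA from the nucleus, fell by 0.81 ± 0.12. EIF4EBP1, an inhibitor of the cap-binding factor eIF4E, was the 1 gene of 16 start-codon and scanning factors that fell (-1.15 ± 0.17).

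Secreted stress factors were a further group. Of 16 tested, 8 fell and none rose, where 1.64% of all genes fell, and the list's median was -0.77. ADM2, the peptide hormone adrenomedullin 2, was at 11.7, 12.1 and 7.96 CPM with vehicle and 1.06, 1.08 and 0.519 with ISRIB, and fell by 3.54 ± 0.29 (edgeR adjusted p = 6.6e-08). TNFSF15, a TNF family cytokine, had 23.3, 24.0 and 24.6 and 6.21, 3.89 and 6.48 CPM and fell by 2.12 ± 0.19. Both genes' groups were far apart. FGF21 and INHBE also passed (edgeR adjusted p = 0.0046 and 0.00033), on 10, 24 and 13 reads of FGF21 with vehicle against 2, 0 and 0 with ISRIB, and 11, 16 and 16 reads of INHBE against 0, 2 and 0. STC2 (-1.28 ± 0.15), FGF19 (-1.51 ± 0.25) and VEGFA (-0.94 ± 0.13) fell too. GDF15, a stress cytokine, varied among replicates, from 44.8, 70.7 and 29.1 CPM with vehicle to 12.1, 21.4 and 7.39 with ISRIB. Its fall of 1.82 ± 0.45 passed with an edgeR adjusted p of 0.029, and was lost with 1 library left out: GDF15 without vehicle replicate 1 or 2 or ISRIB replicate 1 or 3 (-1.87 to -1.43, adjusted p = 0.071 to 0.2). GDF15 was the 1 gene of 17 in the list of p53 targets that fell.

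In the endoplasmic reticulum list 5 of 24 genes fell. HERPUD1 (on chromosome 16 from 56932048 to 56944863), which helps to remove misfolded proteins from that compartment, was at 53.4, 57.7 and 59.8 CPM with vehicle and 14.1, 13.7 and 15.3 with ISRIB. Both groups were tight, and the fall of 1.99 ± 0.11 had an edgeR adjusted p of 2.1e-10. XBP1, the sensor kinase ERN1 (IRE1, -0.78 ± 0.10), the chaperone HSPA5 (BiP, -0.59 ± 0.11) and its cofactor DNAJB9 (-0.57 ± 0.13) completed the 5. With 1 library left out a call was lost for DNAJB9 without vehicle replicate 1 or ISRIB replicate 1 or 2 (-0.54 to -0.53, adjusted p = 0.082 to 0.11). The list's median was -0.06. None of 14 cytosolic heat shock genes, 13 mitochondrially encoded genes, 49 cytosolic ribosomal protein genes, 26 mitosis genes or 10 polyamine genes passed, with medians of 0.17, 0.01, -0.11, 0.03 and 0.04.

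Several of the 20 leading falls are not in the list of ATF4 and CHOP targets. KIF21B, a kinesin motor, had 11.5, 11.5 and 9.55 CPM with vehicle and 1.49, 1.73 and 1.69 with ISRIB and fell by 2.73 ± 0.20. LMO4, a LIM-domain transcription cofactor, fell from 40.5, 55.4 and 44.3 to 9.18, 9.46 and 9.85 CPM, by 2.30 ± 0.15, and GRB10, an adaptor that inhibits the insulin receptor, from 76.8, 50.9 and 57.8 to 19.9, 13.0 and 13.7, by 1.99 ± 0.18. In all 3 genes the vehicle values were far above the ISRIB values. ULBP1, a ligand of the natural killer cell receptor NKG2D, fell by 2.11 ± 0.26, the glucocorticoid-induced leucine zipper gene TSC22D3 by 1.89 ± 0.23 and the membrane protease gene PRSS8 (prostasin) by 1.88 ± 0.20. CCNG2, an atypical cyclin, fell by 1.88 ± 0.41 (edgeR adjusted p = 0.011), and was the 1 gene of the 20 to miss the threshold with 1 library left out: CCNG2 without vehicle replicate 1 or ISRIB replicate 3 (-1.74 to -1.73, adjusted p = 0.058 to 0.062). In the FOXO and clock list CCNG2 and KLHL24 (-1.49 ± 0.23) were the 2 of 21 that fell.

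Some falls were in pseudogenes, which can share reads with the genes they were copied from. PSAT1P4, of the 20 leading falls, fell by 1.95 ± 0.15, where PSAT1 fell by 1.64 ± 0.14. Processed pseudogenes made up 18 of the 285 falls and 2 of the 96 rises, against 2661 of the 17409 genes tested, a larger share. Protein-coding genes made up 86% of the falls and 95.8% of the rises, against 71.9% of all genes tested. For SLC6A9, JDP2, HAS3 and ZNF649 the exons overlap those of a neighbouring gene, and whether the counting used strand is not given in the sources used here.

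**Figure D3:**
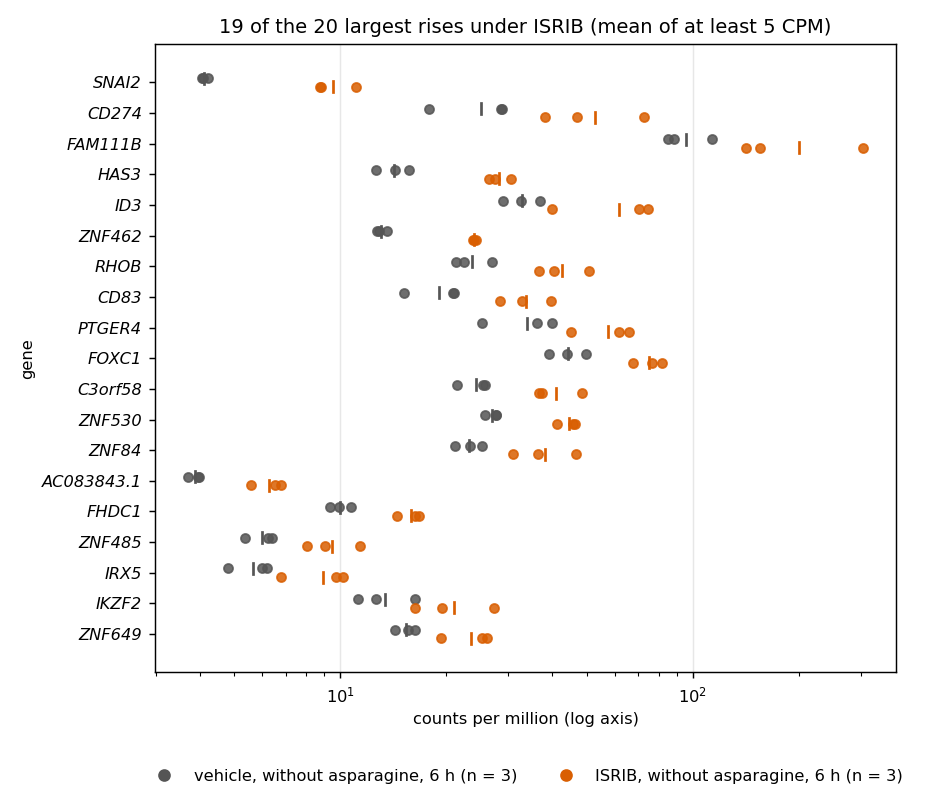
Expression of 19 of the 20 leading rises under ISRIB without asparagine at 6 h (mean of at least 5 CPM), in CPM on a log axis; points are single libraries, 3 with vehicle (grey) and 3 with ISRIB (orange), and vertical ticks are group means. The gaps are narrower than for the falls, from SNAI2 at the top, whose groups are well apart, to IKZF2 and ZNF649 at the bottom, where they lie closer.

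Transcription factors, a surface ligand and a cell-cycle gene were among the leading rises. SNAI2 (on chromosome 8 from 48917604 to 48921740), which encodes the repressor Slug, a driver of the change from epithelial to mesenchymal state, had 4.06, 4.22 and 4.08 CPM with vehicle and 8.76, 8.81 and 11.1 with ISRIB. All ISRIB libraries were above all vehicle libraries, and SNAI2 rose by 1.21 ± 0.17 on the log2 scale (edgeR adjusted p = 0.00013). It was the 1 gene that rose among 16 regulators of that change and cadherins, where LMO4 and the epithelial splicing factor ESRP1 (-0.56 ± 0.11) fell and the median was 0.02. ZNF462, a zinc finger gene, went from 12.7, 13.6 and 12.9 to 24.0, 23.8 and 24.3 CPM, a rise of 0.88 ± 0.10 with 3 nearly equal values in each group. The forkhead factor FOXC1 rose from 39.2, 49.8 and 43.9 to 67.6, 76.7 and 81.8 CPM (0.77 ± 0.11), and the homeobox gene IRX5 by 0.66 ± 0.17 (edgeR adjusted p = 0.047). IKZF2, which encodes the zinc finger factor Helios, rose by 0.65 ± 0.17. Leaving out a library ended the calls of IRX5 without vehicle replicate 1, 2 or 3 or ISRIB replicate 1 or 2 (0.55 to 0.72, adjusted p = 0.092 to 0.23), IKZF2 without vehicle replicate 1 or 3 or ISRIB replicate 2 or 3 (0.42 to 0.70, adjusted p = 0.068 to 0.3) and ESRP1 without vehicle replicate 1 (-0.49, adjusted p = 0.058).

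CD274, which encodes the immune checkpoint ligand PD-L1, had 17.9, 28.6 and 28.7 CPM with vehicle and 38.2, 46.9 and 72.9 with ISRIB, so that the groups did not overlap but replicate 3 with ISRIB stood highest. Its rise of 1.07 ± 0.26 passed with an edgeR adjusted p of 0.026. That call was lost with 1 library left out: CD274 without vehicle replicate 1 or 2 or ISRIB replicate 3 (0.76 to 1.18, adjusted p = 0.052 to 0.19). CD274 was the 1 gene of 9 for PD-L1 and antigen presentation that passed, and B2M (-0.16) and HLA-C (-0.19) did not. CD83, an immunoglobulin family surface protein, rose by 0.81 ± 0.17, as the 1 called gene among 23 inflammatory and NF-kB genes. That list's median was 0.36, with BIRC3 at 0.72 ± 0.32, TNFAIP3 at 0.77 ± 0.31 and CXCL8 at 0.82 ± 0.42, none of which passed. The call of CD83 was lost as well: CD83 without vehicle replicate 1 (0.68, adjusted p = 0.076).

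Other membrane and matrix genes rose. HAS3, a synthase of hyaluronan, had 12.7, 14.3 and 15.7 CPM with vehicle and 27.4, 30.6 and 26.4 with ISRIB, and rose by 0.99 ± 0.12 (edgeR adjusted p = 1.8e-05). The small GTPase gene RHOB rose by 0.85 ± 0.19, and PTGER4, a receptor of prostaglandin E2, by 0.77 ± 0.18. C3orf58 (0.75 ± 0.12), the formin gene FHDC1 (0.66 ± 0.13) and the long non-coding gene AC083843.1 (0.70 ± 0.16) were also among the 20 leading rises. HAS3 kept all libraries of the 2 groups apart. ID3, an inhibitor of basic helix-loop-helix factors, rose from 32.7, 37.0 and 29.1 to 70.5, 74.5 and 39.9 CPM by 0.91 ± 0.21, with ISRIB replicate 3 the lowest of its group. Its relative ID1 fell by 0.91 ± 0.23, from 30.6, 29.9 and 20.8 to 16.9, 17.5 and 8.69 CPM, again lowest in that library. With 1 library left out, calls were lost for RHOB without vehicle replicate 1 or 3 or ISRIB replicate 2 (0.71 to 0.82, adjusted p = 0.077 to 0.091), PTGER4 without vehicle replicate 1 or 3 or ISRIB replicate 2 or 3 (0.60 to 0.82, adjusted p = 0.057 to 0.2) and AC083843.1 without vehicle replicate 1, 2 or 3 or ISRIB replicate 1 or 3 (0.64 to 0.72, adjusted p = 0.052 to 0.087), and for ID3 without vehicle replicate 1 or 3 or ISRIB replicate 1 or 2 (0.75 to 0.90, adjusted p = 0.1 to 0.13) and ID1 without vehicle replicate 1 or 2 or ISRIB replicate 3 (-0.83 to -0.66, adjusted p = 0.14 to 0.17). In the list of TGF-beta, BMP and YAP response genes RHOB and ID3 thus rose and ID1 and the repressor TGIF1 (-0.74 ± 0.11) fell, of 20. Among 12 KLF factors KLF10 rose (0.42 ± 0.10) and KLF9 (-1.29 ± 0.17) and KLF3 (-0.55 ± 0.14) fell, and with 1 library left out calls were lost for KLF10 without vehicle replicate 1, 2 or 3 or ISRIB replicate 3 (0.30 to 0.45, adjusted p = 0.062 to 0.17) and KLF3 without vehicle replicate 1, 2 or 3 or ISRIB replicate 1 or 2 (-0.59 to -0.42, adjusted p = 0.087 to 0.23).

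Genes of DNA replication and entry to S phase leaned upward. Of 33 tested, 6 rose and none fell, against 0.551% of all genes that rose, and in 17 every ISRIB library lay above every vehicle library, against 6.35%. The median of the list was 0.17. CDC25A, the phosphatase that opens the way into S phase, had 44.2, 48.1 and 51.2 CPM with vehicle and 69.9, 70.6 and 77.4 with ISRIB, with no overlap, and rose by 0.60 ± 0.08 (edgeR adjusted p = 3e-05). The cyclin gene CCNE1 rose by 0.56 ± 0.10, the replication fork genes GINS3 and MCM10 by 0.45 ± 0.10 and 0.39 ± 0.09, and SLBP, which binds histone messages, by 0.39 ± 0.09. FAM111B, a cell-cycle-regulated protease gene, had 85.2, 88.7 and 113 CPM with vehicle and 156, 142 and 303 with ISRIB, where replicate 3 stood far above the others of its group. Its rise was 1.06 ± 0.26, and 0.63 without that library. Leaving out a library ended the calls of FAM111B without vehicle replicate 1 or 2 or ISRIB replicate 3 (0.63 to 1.01, adjusted p = 0.13 to 0.24) and MCM10 without vehicle replicate 1 or 2 or ISRIB replicate 3 (0.30 to 0.41, adjusted p = 0.059 to 0.14), and for GINS3 without vehicle replicate 1 or 3 or ISRIB replicate 3 (0.37 to 0.44, adjusted p = 0.061 to 0.076) and SLBP without vehicle replicate 1 or 2 or ISRIB replicate 3 (0.27 to 0.37, adjusted p = 0.098 to 0.12). CDC25A and CCNE1 passed without each single library. The 6 rises of the list became 2 without vehicle replicate 1 or ISRIB replicate 3 and 3 without vehicle replicate 2. None of the MCM2 to MCM7 helicase genes passed.

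Genes whose symbols begin with ZNF, most of them zinc finger factors, made up 443 of the genes tested, and 10 rose and 3 fell, where 0.551% and 1.64% of all genes did, with a median of 0.13. ZNF530 had 27.6, 27.6 and 25.8 CPM with vehicle and 45.8, 41.3 and 46.3 with ISRIB, and rose by 0.72 ± 0.09. ZNF84 (0.71 ± 0.18), ZNF485 (0.66 ± 0.15) and ZNF649 (0.61 ± 0.14) were of the 20 leading rises, and calls were lost with 1 library left out for ZNF84 without vehicle replicate 1, 2 or 3 or ISRIB replicate 1 or 3 (0.54 to 0.77, adjusted p = 0.069 to 0.2), ZNF485 without vehicle replicate 2 or ISRIB replicate 3 (0.52 to 0.58, adjusted p = 0.098 to 0.11) and ZNF649 without vehicle replicate 1 or 3 or ISRIB replicate 2 or 3 (0.53 to 0.62, adjusted p = 0.055 to 0.1). With the GC trend removed 45 rose and 7 fell, at a median of 0.12, and without ISRIB replicate 3 7 rose and 2 fell, at 0.13. This group was formed after its values were seen. Of the 20 leading rises 12 passed without ISRIB replicate 3, 12 without vehicle replicate 3 and 9 without vehicle replicate 1. With the 2 groups fitted alone 6 of them passed, and 8 of all 96 rises, and with a minimum fold of 1.2 there were 9 of the 20, where all 20 leading falls passed in both. Under the fit of the 2 groups alone C3orf58, FHDC1 and CCNE1, the last not of the 20, missed the threshold (adjusted p = 0.069, 0.08 and 0.16), as was CCNE1 with the minimum fold. Single genes that rose elsewhere were RRS1 (0.44 ± 0.09), of 30 ribosome biogenesis genes with a median of 0.14, and the snoRNA host SNHG15 (0.46 ± 0.12), of 17. The call of SNHG15 was lost with 1 library left out: SNHG15 without vehicle replicate 1, 2 or 3 or ISRIB replicate 1, 2 or 3 (0.45 to 0.48, adjusted p = 0.066 to 0.14).

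To show where the drug left these genes, ISRIB without asparagine was set against vehicle in complete medium, 2 groups that differ in both medium and drug. The ISRIB libraries are those of the main comparison. Between them 727 genes (4.18%) passed, and 536 (3.08%) were higher and 191 (1.1%) lower. Without ISRIB replicate 3 that total became 242, and without replicate 1, 2 or 3 of the vehicle it became 274, 298 or 478. With the GC trend removed, 1080 genes were higher and 672 lower. ASNS under the drug had 28.2, 22.8 and 28.9 CPM against 30.8, 26.7 and 29.5 in complete medium, and its groups overlapped (log2 difference -0.12 ± 0.10). ASNS, TRIB3 (-0.34 ± 0.13), ATF4 (-0.16 ± 0.10), XBP1 (0.14 ± 0.10) and ADM2 (-0.02 ± 0.36) did not pass the test. Some genes were lower. CHAC1 with ISRIB had 0.796, 0.811 and 0.0648 CPM against 2.32, 2.29 and 3.24 in complete medium (-2.16 ± 0.51, edgeR adjusted p = 0.018), and DDIT4 4.67, 4.76 and 2.59 against 9.03, 11.8 and 7.88 (-1.24 ± 0.29, adjusted p = 0.018). In both genes every ISRIB library without asparagine was below every vehicle library with it. LMO4 (-0.86 ± 0.15), JDP2 (-0.65 ± 0.18), SLC1A5 (-0.54 ± 0.14), HERPUD1 (-0.51 ± 0.11) and GPT2 (-0.47 ± 0.11) also lay lower. LMO4 and HERPUD1 passed without each single library, and with 1 library left out calls were lost for CHAC1 without vehicle replicate 3 or ISRIB replicate 3 (-1.98 to -1.70, adjusted p = 0.066 to 0.1) and DDIT4 without vehicle replicate 1 or 2 or ISRIB replicate 3 (-1.28 to -1.02, adjusted p = 0.054 to 0.13), and for JDP2 without vehicle replicate 1, 2 or 3 or ISRIB replicate 3 (-0.72 to -0.48, adjusted p = 0.057 to 0.28), SLC1A5 without vehicle replicate 1, 2 or 3 or ISRIB replicate 3 (-0.57 to -0.43, adjusted p = 0.074 to 0.21) and GPT2 without vehicle replicate 1 or 2 or ISRIB replicate 3 (-0.48 to -0.34, adjusted p = 0.059 to 0.15).

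Some genes that fell under the drug were above complete medium. SLC38A2, the system A transporter that starved cells induce, had 255, 268 and 314 CPM in complete medium, 661, 840.2 and 765 without asparagine and 337, 393 and 488 with ISRIB added. All 3 ISRIB values were between those of the vehicle groups, and the remaining difference from complete medium was 0.54 ± 0.13 (edgeR adjusted p = 0.02). ERN1 (0.46 ± 0.10) and KLF3 (0.64 ± 0.14) were higher as well. Single libraries decided the calls of SLC38A2 without vehicle replicate 1 or 2 or ISRIB replicate 3 (0.39 to 0.51, adjusted p = 0.097 to 0.17), ERN1 without vehicle replicate 3 or ISRIB replicate 3 (0.38 to 0.41, adjusted p = 0.058 to 0.085) and KLF3 without vehicle replicate 1 or 2 or ISRIB replicate 3 (0.42 to 0.62, adjusted p = 0.064 to 0.12). Of the 42 ATF4 and CHOP targets 4 were lower and 3 higher than in complete medium, against 1.1% and 3.08% of all genes, and the list's median was -0.14. The 4 and 3 became 1 and 1 without vehicle replicate 1, 1 and 2 without vehicle replicate 2, 2 and 3 without vehicle replicate 3, and 0 and 1 without ISRIB replicate 3.

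Other genes stood away from complete medium with no call under the drug. EIF5, whose product acts at start-codon selection, had 1236, 1367 and 1618 CPM in complete medium, 533, 532 and 802 without asparagine and 399.8, 462 and 644 with ISRIB added. Every library without asparagine was below every library with it, at -1.49 ± 0.17 for ISRIB against complete medium, whereas the drug's own difference was -0.31 ± 0.16 (edgeR adjusted p = 0.54). RND3, a small GTPase gene, went the other way, with 129.8, 171 and 177, 210.4, 324 and 293 and 288, 434 and 592 CPM in the same order, 1.46 ± 0.23 above complete medium. FILIP1L (1.79 ± 0.29), BIRC3 (1.31 ± 0.33), GATA6 (1.27 ± 0.13) and FBXO32 (1.17 ± 0.15) were higher too, and OSGIN1 (-1.30 ± 0.20), TNFRSF10D (-1.04 ± 0.10), SLC45A4 (-1.02 ± 0.14) and CYP4F3 (-0.92 ± 0.19) lower. With 1 library left out, calls were lost for BIRC3 without vehicle replicate 1 or 2 or ISRIB replicate 3 (0.64 to 1.19, adjusted p = 0.13 to 0.33) and CYP4F3 without vehicle replicate 2 or ISRIB replicate 3 (-0.79 to -0.73, adjusted p = 0.058 to 0.063). None of these passed under the drug alone, where they ranged from -0.63 for OSGIN1 to 0.72 for BIRC3. EIF5P1 (-1.25 ± 0.25) can share reads with EIF5. Of the 12 KLF factors 6 were higher than in complete medium and none lower, against 3.08% and 1.1% of all genes. KLF10 (1.34 ± 0.10), which also rose under the drug, was among the 6. The 6 became 2 or 4 without vehicle replicate 1 or 2 and 3 without ISRIB replicate 3. SNAI2 and CD274 were also higher than in complete medium, by 1.17 ± 0.17 and 1.57 ± 0.26.

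**Figure D4:**
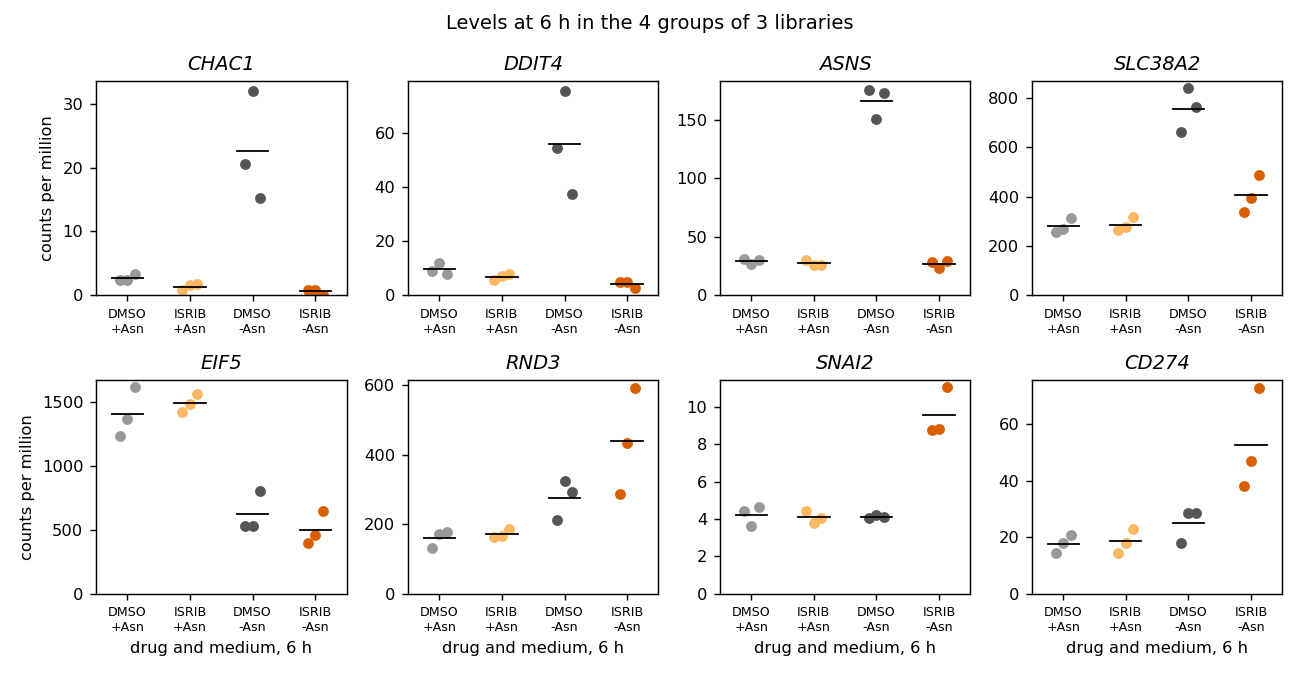
Levels of 8 genes at 6 h in CPM on linear axes that start at 0, for vehicle (DMSO) and ISRIB with asparagine (+Asn) and without it (-Asn); points are single libraries and bars are means of 3. ASNS without asparagine with ISRIB overlaps the vehicle libraries in complete medium, CHAC1 and DDIT4 lie below that medium, SLC38A2 lies between, and SNAI2 and CD274 are highest with ISRIB without asparagine.

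The drug moved no gene past the threshold in complete medium. There, 0 of 17409 genes (0%) passed with edgeR, with DESeq2 or with limma on the deposited log2 values, 203 had an unadjusted p below 0.05, and 7 passed when no filter on low counts was used. The difference between the responses in the 2 media was tested directly. It passed for 125 genes (0.718%), and the response was lower without asparagine for 115 genes (0.661%) and higher for 10 (0.0574%), and with the GC trend removed for 224 and 68. ASNS had 30.8, 26.7 and 29.5 CPM with vehicle and 30.3, 25.8 and 26.0 with ISRIB in complete medium, where the groups overlapped, and the difference between the responses was -2.56 ± 0.14 (edgeR adjusted p = 4.2e-10). CHAC1 had 2.32, 2.29 and 3.24 and 0.797, 1.5 and 1.69 CPM there, a log2 change of -0.98 ± 0.43 that did not pass, and a difference between media of -4.29 ± 0.65. For SNAI2 the values were 4.44, 3.60 and 4.64 and 4.43, 3.80 and 4.03 CPM, a change of -0.05 ± 0.18, and the difference was 1.26 ± 0.25.

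Of the 42 ATF4 and CHOP targets 29 had a lower response without asparagine than with it, and none a higher one, where 0.661% of all genes had a lower one. The 2 responses share no library, but the libraries without asparagine are those of the main comparison. The difference is thus no separate support for the falls seen there, and the list was drawn up with earlier results of these data known. A lower response without asparagine was also found for 6 of 18 cytosolic synthetases, 5 of 21 transporters, 5 of 22 genes of the bZIP list, 4 of 24 endoplasmic reticulum genes and 4 of 14 serine and folate genes. With any 1 of the 12 libraries left out, the targets numbered 25 to 28, the synthetases 5 to 7, the transporters and the bZIP genes 4 to 6 each, and the endoplasmic reticulum genes and the serine and folate genes 3 to 4 each. The calls of HSPA5 (-0.71 to -0.53, adjusted p = 0.05 to 0.16) and SHMT2 (-0.56 to -0.47, adjusted p = 0.077 to 0.16) were lost for 10 of the 12 libraries, HSPA5 passing without vehicle replicate 1 or ISRIB replicate 3 in the medium without asparagine and SHMT2 without ISRIB replicate 1 in complete medium or replicate 2 in the other. MARS was lost for 5 libraries (vehicle replicates 1 and 2 and ISRIB replicates 2 and 3 in complete medium, and vehicle replicate 1 without asparagine, adjusted p = 0.057 to 0.071), SLC7A1 for 3 (vehicle replicate 1 and ISRIB replicates 2 and 3 in complete medium, 0.055 to 0.06) and DDIT3 for 1 (ISRIB replicate 2 in complete medium, 0.055). Besides SNAI2, the rises that differed between media included HAS3 (0.99 ± 0.17), ZNF462 (0.88 ± 0.14), FOXC1 (0.80 ± 0.15) and CDC25A (0.59 ± 0.11). For CD274 (1.00 ± 0.37, adjusted p = 0.54), FAM111B (0.81 ± 0.36, 0.82) and ID3 (1.12 ± 0.30, 0.13) the difference did not pass.

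**Figure D5:**
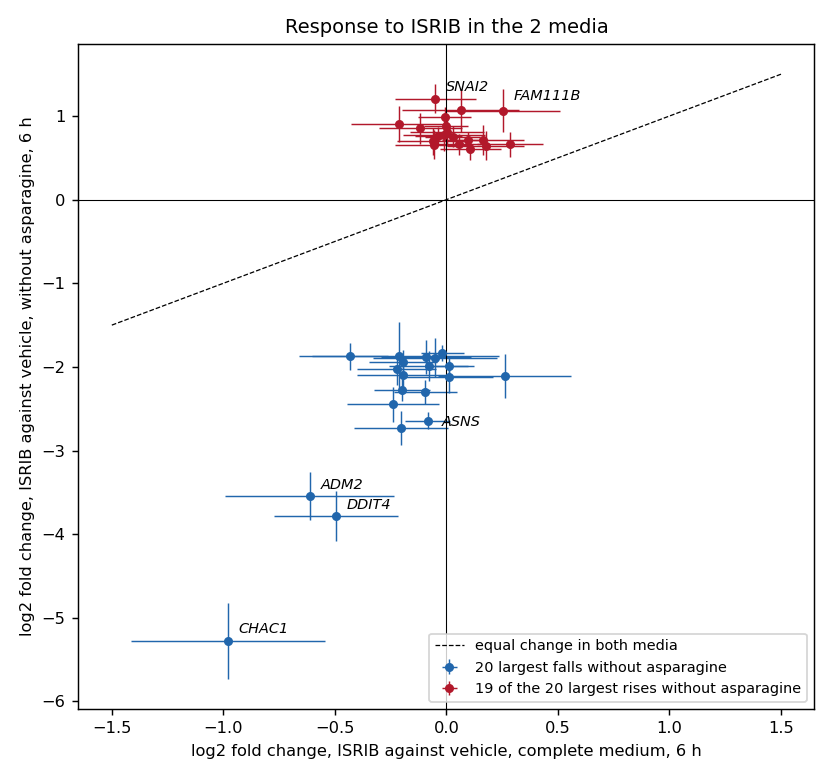
Log2 fold change under ISRIB at 6 h in complete medium (horizontal axis) and without asparagine (vertical axis) for the 20 leading falls (blue) and 19 of the 20 leading rises (red) without asparagine; bars are 1 SE, each axis compares 3 libraries with 3, and the dashed line marks equal change. The genes were chosen by their vertical position; on the horizontal axis none passed the test, and CHAC1 is furthest from 0 at -0.98 ± 0.43.

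At 24 h the response of many of these genes to ISRIB differed. The vehicle and drug libraries at 24 h are separate from those at 6 h, so the difference of the 2 responses could be tested. The 6 h libraries are those of the main comparison, so the difference is no separate support for the falls at 6 h. At 24 h 3778 genes (21.7%) passed under ISRIB, of which 1762 (10.1%) rose and 2016 (11.6%) fell. The difference passed for 1322 genes (7.59%), 584 with a higher and 738 with a lower response at 24 h. That count was 674 to 736 when any 1 of 7 of the 12 libraries was left out: vehicle replicate 1 or 2 or ISRIB replicate 3 at 6 h, and vehicle replicate 1 or 3 or ISRIB replicate 1 or 3 at 24 h. TRIB3 at 24 h had 77.0, 94.4 and 78.1 CPM with vehicle and 108, 87.5 and 108 with ISRIB, a change of 0.29 ± 0.13 after -2.27 ± 0.13 at 6 h, and the difference between times was 2.56 ± 0.18. XBP1 had 43.6, 41.2 and 43.8 and 50.2, 55.8 and 48.9 CPM (0.27 ± 0.10), with a difference of 2.10 ± 0.14. For both genes the vehicle level without asparagine was lower at 24 h than in every vehicle library without asparagine at 6 h. ASNS still fell, from 57.4, 59.4 and 54.6 to 18, 18.8 and 17.2 CPM (-1.67 ± 0.10), by less than at 6 h (difference 0.98 ± 0.14, edgeR adjusted p = 0.00023).

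Of the 42 ATF4 and CHOP targets 30 had a higher response at 24 h than at 6 h and none a lower one, against 3.35% and 4.24% of all genes, and the median change of the list was -0.15 at 24 h and -1.23 at 6 h. CHAC1 (4.39 ± 0.79), DDIT4 (3.13 ± 0.40), SESN2 (2.52 ± 0.30), TSC22D3 (2.37 ± 0.32) and PRSS8 (2.17 ± 0.28) had among the largest differences. None of these genes passed under ISRIB at 24 h. In each, every vehicle library without asparagine was lower at 24 h than at 6 h. With vehicle at 24 h DDIT4 had 9.01, 11.4 and 12.4 CPM and SESN2 7.56, 7.98 and 8.32. CHAC1 was scarce then, with 0.995, 1.34 and 0.726 CPM with vehicle and 0.639, 0.345 and 0.669 with ISRIB. SLC7A11 fell at both times (-1.16 ± 0.14 and -1.09 ± 0.14), and its difference of 0.07 ± 0.20 did not pass. Other genes, which had not passed at 6 h, had lower responses at 24 h. LRP8, a lipoprotein receptor gene, had 122, 125 and 125 CPM with vehicle and 118, 122 and 119 with ISRIB at 6 h, and 128, 131 and 125 and 44.0, 46.3 and 43.8 at 24 h, a difference between times of -1.47 ± 0.09 (edgeR adjusted p = 1.6e-09). EIF5 fell at 24 h from 1122, 1129 and 1142 to 250, 310.4 and 249 CPM, by 2.07 ± 0.17. HSD3B1 (-1.94 ± 0.15), TLR4 (-1.73 ± 0.28), MAN1A1 (-1.69 ± 0.40) and the aldo-keto reductase gene AKR1B10 (-1.65 ± 0.12), which may share reads with its pseudogene AKR1B10P1, were of the same kind. Among 23 inflammatory genes 3 had a lower response at 24 h, and among the 33 replication genes 7 had, with HAS3 (-1.06 ± 0.17) and CD83 (-1.08 ± 0.25) in the same direction. The 30 targets numbered 27 to 31 and the 3 inflammatory genes 2 to 4 with 1 library left out, and the 7 replication genes became 3 without ISRIB replicate 1 or vehicle replicate 3 at 24 h and 4 without vehicle replicate 1 or 2 at 6 h. In bulk libraries such as these, fewer cells that express a gene and less RNA per cell cannot be told apart.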

How the data were processed

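Sequenced RNA of 24 PC9 libraries, 8 groups of 3, was analysed from the deposited table of raw counts per gene, which the authors made with Bowtie2, featureCounts and hg38, per the submitters' processing notes; versions and whether strand was used are not given in the sources used here. A second deposited table holds variance-stabilised log2 values, made with DESeq2 per the same notes, and was used for 1 alternative with limma 3.58.1. The members and lists were chosen with earlier results of these data known.

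Of 37411 genes, 36620 matched GENCODE 29 by identifier, and 17409 passed edgeR's filter on low counts, which set aside 0.0771% to 0.085% of the reads of the 6 libraries. edgeR 4.0.16 in R 4.3.3 was run with TMM scaling and 1 quasi-likelihood fit over all 24 libraries (8 group means, 16 residual degrees of freedom), with Benjamini-Hochberg adjustment and a threshold of 0.05. The standard error is the log2 fold change divided by the square root of F. CPM use the TMM-scaled totals. Differences between media and between times are contrasts of the same fit. Named are genes from the 20 leading changes each way (mean of at least 5 CPM, no overlap), called members of the lists described with up to 2 uncalled ones, and for the other contrasts genes from the 8 largest each way. Other values are beside these and were chosen after they were seen. Not every list is described, such as that of NRF2 targets, where 3 of 20 fell (1 to 3 with 1 library left out) against 1.64% of all genes. Depth was 16737384 to 27495861 reads over the 24 libraries. Results for a few named genes are not reported here, though they stay in all counts. The test was checked on simulated counts with known changes, 50 genes for each fold. It recovered 3 of 50 at 1.25-fold, 24 at 1.5-fold, 42 at 2-fold and 47 at 4-fold, with 5 false calls, so small changes were often missed. The simulated counts were drawn independently, with a spread set by the trend over expression level. They had no GC trend and no correlation between same-numbered libraries, so these figures need not hold for the real libraries.

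Replicate numbers were checked as pairs: in the main comparison the deviations of same-numbered libraries from their group means correlated at 0.327, 0.363 and 0.470, and in ISRIB without asparagine against vehicle in complete medium at 0.236, 0.343 and 0.366, so a fit with the replicate number as a block was used as an alternative. Pairing comes from these correlations, as the labels do not say what a number marks. For ISRIB against vehicle in complete medium at 6 h they were 0.292, 0.351 and -0.0328. Without asparagine at 24 h they were -0.127, -0.267 and 0.0209, so pairing was not seen in every comparison that the block entered. The alternatives tried were the tool DESeq2 1.42.0, scaling by RLE or by the upper quartile, leaving genes unfiltered, 5 CPM in 3 libraries, the compared groups alone, the block, limma, a GC correction (a spline with 5 degrees of freedom), a minimum fold of 1.2 and each library left out.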

Additional observations from a re-analysis of the deposited data

Results flagged for a closer look

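The response to ISRIB at 6 h differed between the media by the test of that difference in edgeR, and the largest differences each way, 8 lower and 7 of the 8 higher ones, are listed as log2 fold change without asparagine minus log2 fold change in complete medium. The response was lower without asparagine for CHAC1 (-4.292), DDIT4 (-3.289), ASNS (-2.559), SESN2 (-2.208), LMO4 (-2.205), TNFSF15 (-2.133), TRIB3 (-2.073) and HERPUD1 (-2.0). It was higher without asparagine for SNAI2 (1.259), HAS3 (0.994), ZNF462 (0.880), FOXC1 (0.802), ZNF530 (0.620), CDC25A (0.592) and RUNDC1 (0.539). The call was lost for ZNF530 (0.57 to 0.60, adjusted p = 0.051 to 0.067) when ISRIB replicate 1 or vehicle replicate 3 without asparagine, or vehicle replicate 2 or ISRIB replicate 3 in complete medium, was left out. It was lost for RUNDC1 (0.495 to 0.53, adjusted p = 0.059 to 0.067) when vehicle replicate 1 or 2 or ISRIB replicate 2 without asparagine, or ISRIB replicate 1 or vehicle replicate 3 in complete medium, was left out.

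The response without asparagine also differed between 24 h and 6 h, and the 8 largest differences each way are given as the change at 24 h minus that at 6 h. It was lower at 24 h for EIF5P1 (-2.186), HSD3B1 (-1.944), EIF5 (-1.759), AKR1B10P1 (-1.744), TLR4 (-1.732), MAN1A1 (-1.692), AKR1B10 (-1.649) and LRP8 (-1.466). It was higher at 24 h for CHAC1 (4.390), DDIT4 (3.126), TRIB3 (2.557), SESN2 (2.518), TSC22D3 (2.366), GDF15 (2.296), PRSS8 (2.170) and VGF (2.156). For GDF15 the call was lost without any 1 of 9 of the 12 libraries (1.91 to 2.45, adjusted p = 0.053 to 0.12), and held only without vehicle replicate 3 or ISRIB replicate 2 at 6 h or vehicle replicate 2 at 24 h. EIF5P1 and AKR1B10P1 are pseudogenes that can share reads with EIF5 and AKR1B10. VGF encodes a secreted neuropeptide precursor.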

How the results depend on the processing

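No gene called under ISRIB without asparagine changed direction in any alternative, and the 20 leading falls passed in each of them except CCNG2. The 381 calls became 141 with the 2 groups fitted alone, 586 with the replicate block and these groups alone, 1059 with the GC correction, 1394 with it and the replicate block, 180 with a minimum fold of 1.2, and 865 with the GC correction but without ISRIB replicate 3, an alternative chosen after seeing the data. The 123 calls of at least 2-fold became 74 with 5 CPM in 3 libraries. For the difference between media (125 calls) the same settings gave 72 (groups alone), 292 (GC), 388 (GC with block), 77 (minimum fold) and 309 (GC without that library). For the difference between times (1322 calls) they gave 2185 with no filter, 2796 (GC), 3451 (GC with block), 396 (minimum fold) and 2145 (GC without that library). For ISRIB without asparagine against vehicle in complete medium (727 calls) they gave 1188 with DESeq2, 1353 with no filter, 34 (groups alone), 1165 (block with groups alone), 1752 (GC), 2191 (GC with block) and 104 (minimum fold). In complete medium 7 passed with no filter. Leaving out 1 library gave 245 to 353 calls, 108 to 138 of at least 2-fold, 92 to 149 for the media, 674 to 1686 for the times, 242 to 885 against complete medium, and 0 in complete medium. Except where the alternative itself drops genes, samples or small folds, the cause was not tested.

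With the replicate block alone, 486 genes were called under ISRIB without asparagine, 144 for the media, 1779 for the times and 956 against complete medium, and no call of a named gene in the main comparison was lost by the pairing.

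Over 838 results for single genes and 18390 repeats under alternatives, 17277 stayed on the same side of the threshold, 454 passed anew in the same direction, 655 missed the threshold and 4 passed with the sign opposite to a main value that had not passed. Another 968 repeats, of values that passed neither there nor in the main comparison, differed in sign from it, and no value that passed in the main comparison did. The 4 concern ISRIB against complete medium: EIF2A was -0.16 with the GC correction and replicate block and -0.23 with that correction without ISRIB replicate 3, and ME1 was -0.18 and -0.24. Depth limits the scarce genes: FGF21, INHBE and CBS rest on few reads, and with 3 libraries a group small changes can go uncalled.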
